A study of Rattus norvegicus with 12 samples.

Results

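The genes described here encode soluble components of the complement system and its inhibitor: the proteases C1r and C1s, the substrates C4a and C2, the central component C3, factor B (Cfb), the terminal proteins C6 and C7, and the C1 inhibitor Serping1. They were chosen by name, and 9 genes were looked for among the 16511 genes of the deposited count table. A row was found for 8 of them, and C7 was not analysed here. The Entrez identifiers are 312705 for C1r, 192262 for C1s, 24233 for C4a, 24231 for C2, 24232 for C3, 294257 for Cfb, 24237 for C6 and 295703 for Serping1.

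By the labels, RNA was sequenced from whole mammary glands of rats at postnatal day 21, with 6 libraries from rats exposed before birth to a high fat butter diet (HFB) and 6 from rats exposed to the AIN control diet (CTL). Each library came from the gland of a separate litter, as the design text describes it. Libraries carry the numbers of the labels, HFB 1 to HFB 6 and CTL 7, 8, 9, 10, 11 and 14. The labels name no other treatment, and the window of the diet exposure is given in conflicting ways in the sources used here. For these data the paper describes microdissected gland epithelium, with the high fat diet compared with and without bisphenol A. These sources differ on tissue and groups, which was not settled from them, and the labels are followed here. The marker levels given below show RNA of fibroblast and fat cell genes in every library. Whole glands hold fat, connective tissue, vessels, epithelium and sometimes muscle or lymph node, so no level can be assigned to a cell type, and the stromal origin of these transcripts was not measured. Fewer cells of a type and less RNA per cell cannot be told apart. The p-values for diet below set a difference against the spread between these litters, and those for relations come from shuffling the libraries.

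Library totals ranged from 2320267 to 2944680 counts, and 3 counts were taken as the smallest detectable level. By these totals they corresponded to between 1.02 and 1.29 CPM, the counts of a gene scaled to a common library size. Levels are given as CPM after TMM scaling in edgeR, a correction for library composition, and they are compared between libraries for 1 gene at a time. With this scaling 3 counts were 0.95 CPM in CTL 7 and 1.30 CPM in CTL 9. All 8 complement genes had 3 or more counts in all 12 libraries and passed the filter on low counts, as did 9382 genes in all.

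Complement is a cascade of plasma and tissue proteins that marks surfaces for removal and can perforate membranes. In the classical pathway C1q binds a target and activates C1r and then C1s, which cleaves C4 and C2. The fragments form an enzyme that cleaves C3, and factor B feeds an amplification loop of the alternative pathway. Liver makes most plasma complement, whereas fibroblasts, fat cells and macrophages make several components locally.

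The libraries HFB 6 and CTL 14 stood apart from the others. Of the 9382 tested genes, 2093 (22.3%) were higher in both than in each of the other 10 libraries, and 1805 (19.2%) were lower in both. The summed level of the lymphoid markers was 967.8 CPM in HFB 6 and 956.8 CPM in CTL 14, against at most 216.3 CPM elsewhere (HFB 1). Of the 9 lymphoid genes listed, 8 had a row and all 8 had counts, with Cd79b, a B cell receptor component, as the most abundant. The adipocyte markers, 7 of 8 with a row and Fabp4 the most abundant, summed to 17769 CPM in HFB 6 and 14439 CPM in CTL 14, against at least 27373 CPM elsewhere. The 10 fibroblast markers, with Col3a1 the most abundant, summed to 25562 CPM in HFB 6 and 24013 CPM in CTL 14, against 35013 CPM or more elsewhere. Each diet holds 1 of these libraries. They were singled out after their values had been seen, and results are given with and without them where they rest on them.

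Markers of other cell types were read in the same way. Of the 8 hepatocyte markers with a row, out of 9 listed, Ttr, Fgb and Tat had 0 counts in all libraries. Fga had 2 counts, Apoa2 5, Serpina1 52, Cyp2e1 242 and Alb 4316. Alb and Cyp2e1 reached the smallest detectable level in all 12 libraries, and Serpina1 in 8. Of the 7 epithelial markers with a row, out of 9 listed, Cldn3 had 0 counts, and Krt8, a luminal keratin, had 3579. The summed epithelial level ranged from 114.3 CPM in HFB 1 to 654.3 CPM in HFB 6. The 8 skeletal muscle markers, with Acta1 the most abundant, summed to 207.8 CPM in CTL 10 and to as much as 7292 CPM in CTL 11. Fibroblast and fat cell markers were thus abundant in every library, with sums of at least 24013 and 14439 CPM, so no library held epithelial RNA alone. Epithelial RNA was present too, with sums of at most 654.3 CPM, so the name stromal is not established for the complement transcripts by these data.

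The diets were compared across the whole table with the quasi-likelihood test of edgeR. After Benjamini-Hochberg adjustment 0 of the 8 complement genes had p under 0.05, against 0.00% of the 9382 tested genes. At an unadjusted p under 0.05, edgeR called 220 genes (2.34%), DESeq2 320 of 13396 tested genes and limma voom 613 of 9382. Each of the latter tools also called 0 genes after adjustment. Of the 8 complement genes edgeR called 0 at this unadjusted limit. The diet groups did not overlap for 10 genes (0.107%), and they overlapped for all 8 complement genes. The log2 fold change of HFB over CTL was above 0 for 4 of the 8 and below 0 for 4 (above 0 for 2 with limma voom or without HFB 5, and for 6 without HFB 2), with a median of 0.026, against a median of 0.00018 over all tested genes. A p that misses the threshold does not show that levels were equal. The standard errors below, derived from the test statistic, are a rough guide to the size of difference that could have been missed.

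**Figure D1:**
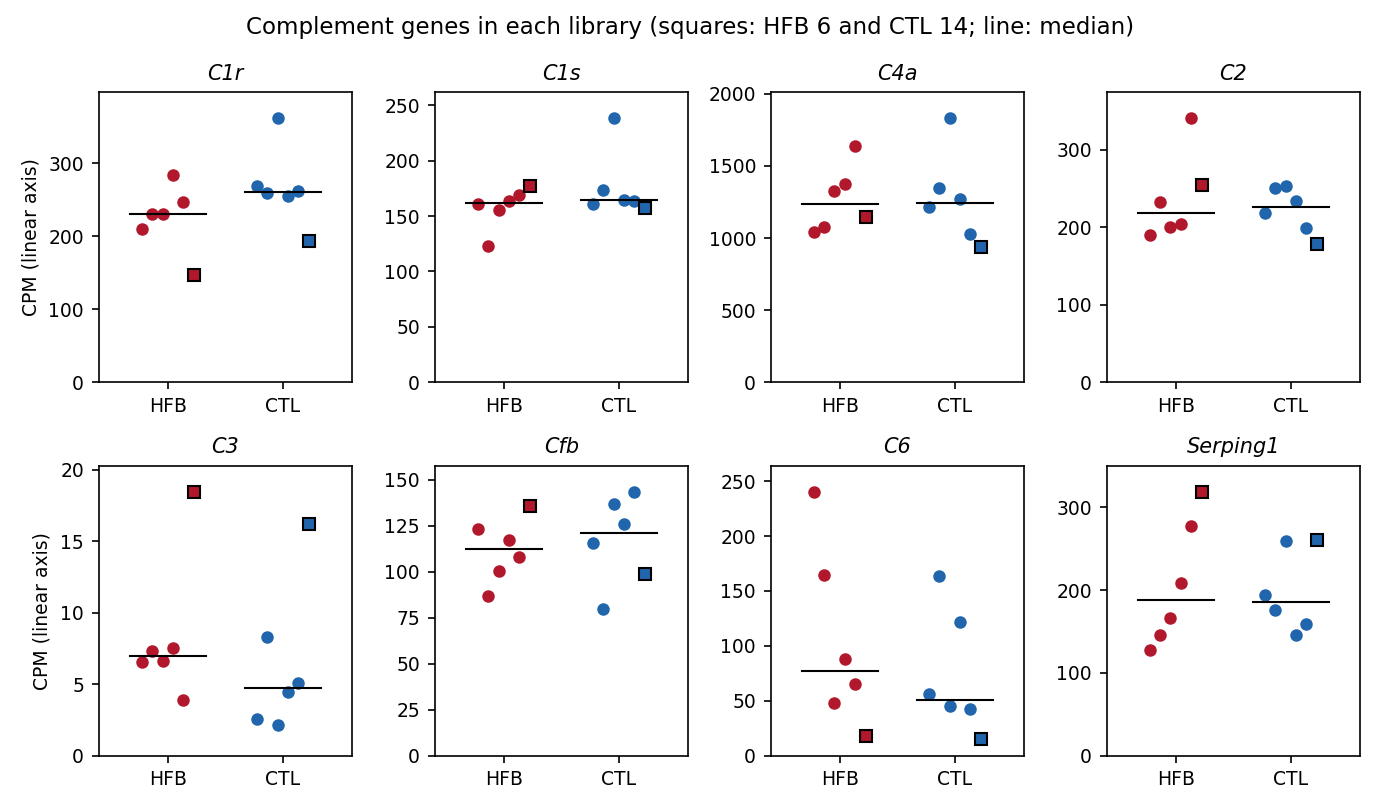
Level of each of the 8 complement genes in CPM (linear axis from 0) in the 6 HFB (red) and 6 CTL (blue) libraries, with the median as a line and HFB 6 and CTL 14 as squares. The diets overlap in every panel, C3 is highest and C6 lowest in the 2 squares, and C1s and C1r are highest in CTL 9.

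C1r is the protease that C1q activates first. Its level was lowest at 146 CPM, had a median of 231 CPM and was highest at 283 CPM in the HFB libraries, and in the CTL libraries these values were 193, 261 and 361 CPM. HFB 6 and CTL 14 were the lowest of their diets and of all 12 libraries, and CTL 9 was the highest, while the groups overlapped. C1r was below the control median in 5 of 6 HFB libraries. Its log2 fold change was -0.25 (standard error 0.17), adjusted p = 0.999 in edgeR's test with Benjamini-Hochberg adjustment. Without HFB 6 and CTL 14 it was -0.22 (standard error 0.13), and without CTL 9 it was -0.14.

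C1s, the protease that C1r cleaves and activates, varied less. It ran from 123 CPM (HFB 2) over a median of 162 CPM to 178 CPM in the HFB group, and from 157 over 164 to 238 CPM in the CTL group. CTL 9 was again the highest library, and the next CTL library was at 174 CPM. HFB 2 and HFB 3 (155 CPM) lay below every control and CTL 9 above every HFB library, while the remaining libraries overlapped. HFB over CTL gave a log2 fold change of -0.16 (standard error 0.13), adjusted p = 0.999 in edgeR's test with Benjamini-Hochberg adjustment, and it was -0.05 without CTL 9. The standard deviation of log2 CPM over the 12 libraries was 0.21, a value that 9.82% of tested genes were below.

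C1r and C1s have no protein-coding gene between them in the GRCr8 gene order. HFB 6 had the fewest C1r counts per C1s count. The log2 ratio of C1s to C1r was -0.49 ± 0.42 (SD, n = 6) with HFB and -0.59 ± 0.16 (SD, n = 6) with CTL. It was lowest in HFB 2 (-0.90) and highest in HFB 6 (0.28). The difference of 0.10 was smaller than the spread (two-sided exact permutation test, p = 0.675, adjusted p = 0.675 over 4 ratios), and 4 of 6 HFB libraries were above the control median. Without HFB 6 the difference was -0.05, and without HFB 2 it was 0.18.

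C4a encodes complement C4, the first substrate of C1s. It was measured at 1041 to 1640 CPM in the HFB libraries, with a median of 1236 CPM, and at 939 to 1830 CPM in the CTL libraries, with a median of 1245.4 CPM. CTL 9 was the highest and CTL 14 the lowest library, so the control group enclosed the HFB group. Between the diets the log2 fold change was -0.0057 (standard error 0.18), adjusted p = 0.999 in edgeR's test with Benjamini-Hochberg adjustment, and its sign depended on the library left out. For the close copy C4b the same fit gave -0.05 (standard error 0.20) on the log2 scale. C4b had between 1.03 (HFB 6) and 1.38 (HFB 1) counts per C4a count. How reads shared by the copies were counted is not given in the sources used here, so the split between C4a and C4b is uncertain.

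C2 carries the catalytic part of the enzyme that C4 and C2 fragments form. Its lowest, median and highest levels were 190, 218 and 340 CPM with HFB and 178.5, 226 and 253.5 CPM with CTL. HFB 5 was the highest library, above every control, and the other 5 HFB libraries lay within or near the control range. The log2 fold change was 0.09 (standard error 0.16), adjusted p = 0.999 in edgeR's test with Benjamini-Hochberg adjustment, and without HFB 5 it was -0.04.

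C3 is the component on which all pathways converge. It had 231 counts in all, from 5 in CTL 9 to 46 in HFB 6 and in CTL 14. In CPM the lowest, median and highest HFB values were 3.87, 6.96 and 18.4, and the CTL values were 2.17, 4.75 and 16.2. HFB 6 and CTL 14 were the 2 highest libraries, and the next was CTL 8 at 8.30 CPM. The exact Poisson 95% interval for counting error was 13.5 to 24.6 CPM in HFB 6 and 11.9 to 21.6 CPM in CTL 14, against 0.71 to 5.07 CPM in CTL 9. Above the control median were 5 of 6 HFB libraries, and the groups overlapped. The log2 fold change was 0.37 (standard error 0.50), adjusted p = 0.999 in edgeR's test with Benjamini-Hochberg adjustment. It was 0.91 without CTL 14, -0.02 without HFB 6 and 0.50 (standard error 0.36) without both. In limma voom with quality weights it was 0.82 with an unadjusted p of 0.0267, the only fit of 22 alternatives in which one of the 8 genes had an unadjusted p under 0.05.

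The log2 ratio of C4a to C3, a comparison within each library, was 7.35 ± 0.87 (SD, n = 6) with HFB and 7.88 ± 1.295 (SD, n = 6) with CTL, and it counts reads without regard to gene length. It was lowest in CTL 14 (5.84) and highest in CTL 9 (9.58), both controls. The difference of -0.53 was smaller than the spread (two-sided exact permutation test, p = 0.422, adjusted p = 0.675 over 4 ratios), with 1 of 6 HFB libraries above the control median. It was -0.18 without CTL 9 and -0.93 without CTL 14.

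Cfb, the protease precursor of the alternative pathway, ran from 87.0 CPM over a median of 112.5 CPM to 135.5 CPM in the HFB group. In the CTL group the values were 79.4, 121 and 143 CPM. The lowest library was CTL 8 and the highest CTL 11, so the HFB range lay inside the control range. The log2 fold change was -0.06 (standard error 0.16), adjusted p = 0.999 in edgeR's test with Benjamini-Hochberg adjustment. It was -0.16 without HFB 6 and CTL 14, -0.15 without CTL 8, 0.0018 without HFB 2 and 0.0062 without CTL 11.

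Cfb and C2 are neighbours with no protein-coding gene between them, and 4 lie between Cfb and C4a. The log2 ratio of C2 to Cfb was 1.07 ± 0.39 (SD, n = 6) with HFB and 0.95 ± 0.39 (SD, n = 6) with CTL, and 4 of 6 HFB libraries were above the control median. The difference of 0.12 was smaller than the spread (two-sided exact permutation test, p = 0.602, adjusted p = 0.675 over 4 ratios). CTL 8 had the highest ratio (1.66) and CTL 11 the lowest (0.48), and the difference was 0.0030 without HFB 5 and 0.26 without CTL 8. Across the 12 libraries the neighbours C2 and Cfb were not seen to vary together (Pearson r = -0.06, permutation p = 0.866, 0.914 when adjusted over 76 relations; Spearman rho = 0.07, permutation p = 0.834, 0.943 when adjusted), and without CTL 14 and HFB 5 r was -0.15.

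C6 is the terminal protein that joins C5b on the way to the membrane pore. It varied most of the 8 genes between libraries. Its lowest, median and highest levels were 17.6, 76.7 and 240 CPM with HFB and 15.1, 50.55 and 164 CPM with CTL, and the highest library had 15.9 times the CPM of the lowest. HFB 1, HFB 2, CTL 8 and CTL 10 were the 4 highest, at 240, 164, 164 and 121 CPM, and HFB 6 and CTL 14 the 2 lowest. The groups overlapped over most of this range. For C6 the log2 fold change was 0.49 (standard error 0.61), adjusted p = 0.999 in edgeR's test with Benjamini-Hochberg adjustment, and without HFB 1 it was 0.05. The standard deviation of log2 CPM was 1.22, above that of 96.0% of tested genes.

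The gene whose log2 CPM followed C6 most closely over the 12 libraries, among 7823 genes with a mean of 10 CPM or more, was Scd, which encodes stearoyl-CoA desaturase of fatty acid synthesis. Pearson r was 0.951, and 0.933 without HFB 6 and CTL 14. Scd was at 5473 CPM in HFB 6 and 7758.5 CPM in CTL 14, and at 46650.3 CPM or more in HFB 1, HFB 2, CTL 8 and CTL 10, which also had the most C6. Maob, a monoamine oxidase, came next with r = 0.933. These genes were picked from all candidates for their likeness, so r is a description without a p.

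**Figure D2:**
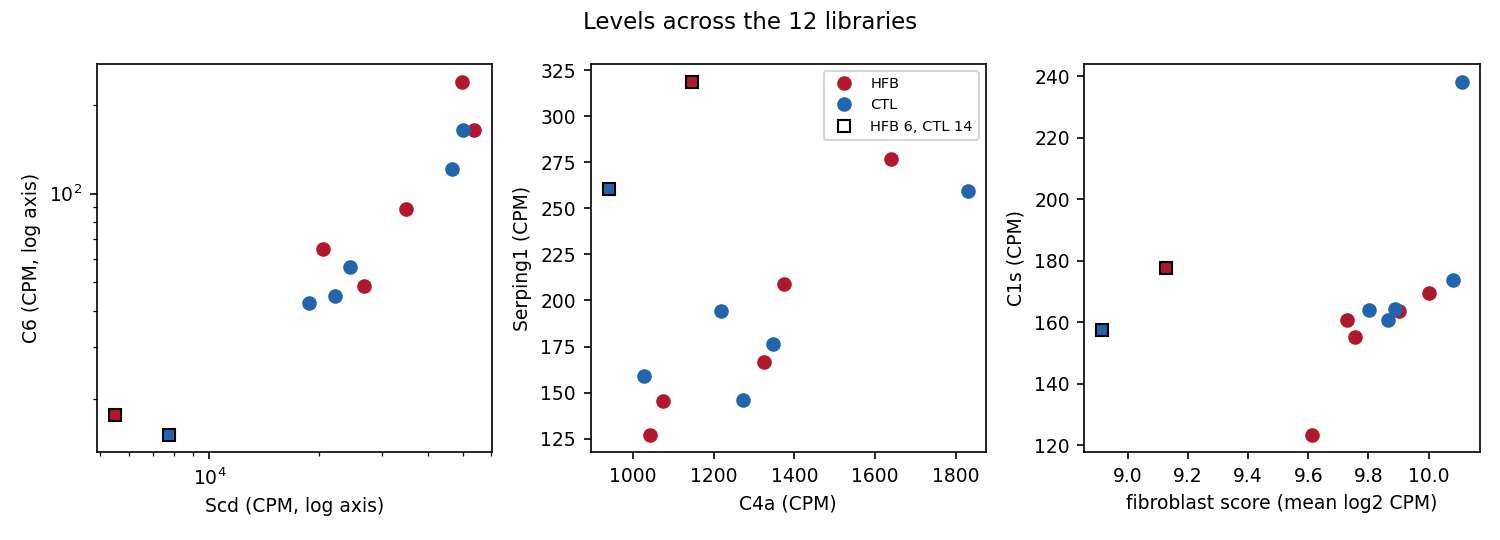
Each point is a library (HFB red, CTL blue, squares for HFB 6 and CTL 14) with C6 against Scd in CPM on log axes, Serping1 against C4a in CPM, and C1s in CPM against the fibroblast score, the mean log2 CPM of its markers. C6 follows Scd over all 12 libraries (r = 0.951 on log2 CPM), while the squares lie off the line of the other 10 points in the 2 other panels.

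Serping1 encodes the C1 inhibitor, which inactivates C1r and C1s. Its lowest, median and highest levels were 127, 188 and 319 CPM with HFB and 146, 185 and 261 CPM with CTL. HFB 6 and HFB 5 were the highest of their diet and CTL 14 and CTL 9 of theirs, while HFB 1 was the lowest library. The groups overlapped and had nearly equal medians. For Serping1 the log2 fold change was 0.06 (standard error 0.24), adjusted p = 0.999 in edgeR's test with Benjamini-Hochberg adjustment, and it was -0.11 without HFB 6.

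The inhibitor was also set against its target within each library. The log2 ratio of Serping1 to C1s was 0.32 ± 0.43 (SD, n = 6) with HFB and 0.15 ± 0.32 (SD, n = 6) with CTL. HFB 1 had the lowest ratio (-0.34) and HFB 6 the highest (0.84), so the HFB libraries covered the whole range. The difference of 0.16 was smaller than the spread (two-sided exact permutation test, p = 0.463, adjusted p = 0.675 over 4 ratios), and 5 of 6 HFB libraries were above the control median. Without HFB 6 it was 0.057 and without HFB 1 it was 0.29.

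**Figure D3:**
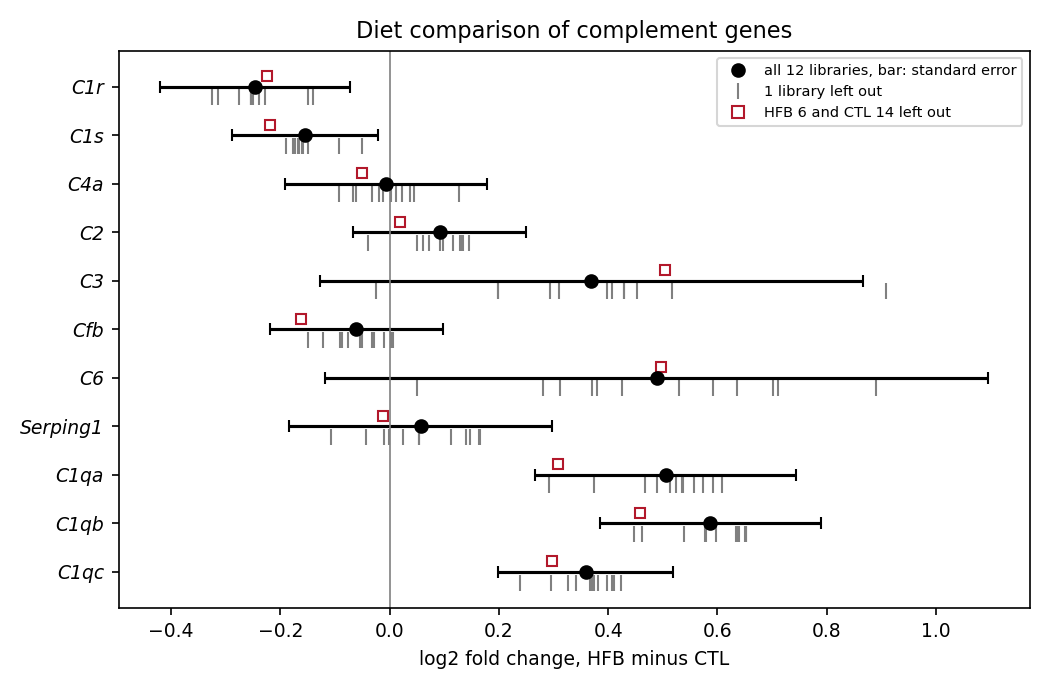
Log2 fold change of HFB over CTL (horizontal axis) for the 8 complement genes and the 3 C1q chains. Circles and bars are the estimate and its standard error over 12 libraries, grey marks leave out 1 library each, and squares leave out HFB 6 and CTL 14. The grey marks of C3 run from -0.02 to 0.91 and those of C6 from 0.05 to 0.89, while those of C1qb run from 0.45 to 0.65.

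The spread between libraries separated the 8 genes. The standard deviation of log2 CPM was below the median of all tested genes (0.40) for 5 of them, C1s (0.21), C2 (0.25), Cfb (0.26), C4a (0.28) and C1r (0.32). It was above for Serping1 (0.43), C3 (0.82) and C6 (1.22).

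How the genes varied together was examined in 28 pairs of complement genes and in 48 relations to the scores of 6 marker lists, 76 relations in all, by Pearson r and Spearman rho with two-sided permutation p. Over the 12 libraries r was above 0 in 17 of the 28 pairs, with a median of 0.09. After Benjamini-Hochberg adjustment 4 relations had p under 0.05 by r and 0 by rho. With CPM by total counts only C1r with the fibroblast score passed (r = 0.815, adjusted permutation p = 0.0220), the 3 others having an adjusted permutation p of 0.0751. The r of these others was then -0.80 (C3 with the fibroblast score), 0.75 (C1r with the adipocyte score) and -0.74 (C3 with C1r). The values that follow are with TMM scaling. C3 was lower where C1r was higher, with r = -0.83 (permutation p = 0.00092, 0.0337 when adjusted). Its rho was -0.59 (permutation p = 0.0459, 0.317 when adjusted), and r was -0.61 without CTL 9 and HFB 6. C1r was higher where the fibroblast score was higher, with r = 0.82 (permutation p = 0.00109, 0.0337 when adjusted). Here rho was 0.80 (permutation p = 0.00259, 0.0984 when adjusted), and r was 0.70 without HFB 6 and CTL 14. With the adipocyte score C1r gave r = 0.80 (permutation p = 0.00133, 0.0337 when adjusted), rho = 0.66 (permutation p = 0.0243, 0.205 when adjusted) and r = 0.47 without those libraries. C3 and the fibroblast score gave r = -0.80 (permutation p = 0.00248, 0.0471 when adjusted), rho = -0.56 (permutation p = 0.0626, 0.323 when adjusted) and r = -0.41 without them. HFB 6 and CTL 14 form a group of their own in these scores, and none of the 4 relations had an adjusted p under 0.05 over the other 10 libraries. There C1r and the fibroblast score kept r = 0.70 (permutation p = 0.0189, 0.2 when adjusted) and rho = 0.67 (permutation p = 0.0388, 0.369 when adjusted), with r = 0.50 without CTL 9 and HFB 2. C3 and C1r had r = -0.61 (permutation p = 0.0569, 0.332 when adjusted) but rho = -0.30 (permutation p = 0.406, 0.707 when adjusted). Without CTL 7 and CTL 9 r was -0.045, so within the 10 libraries this relation rests on those. The relations of C1r with the adipocyte score and of C3 with the fibroblast score shrank most without HFB 6 and CTL 14 and rest on them.

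The 76 relations over those 10 libraries, a choice made after the values had been seen, gave 2 with an adjusted p under 0.05 by r and 0 by rho. C1s was higher where the fibroblast score was higher, with r = 0.83 (permutation p = 0.00011, 0.00836 when adjusted). Its rho was 0.89 (permutation p = 0.00108, 0.0821 when adjusted), and r was 0.78 after the diet means were removed and 0.90 without CTL 9 and HFB 2. Serping1 was higher where C4a was higher, with r = 0.88 (permutation p = 0.00112, 0.0426 when adjusted). Here rho was 0.83 (permutation p = 0.00473, 0.102 when adjusted), and r was 0.88 after the diet means were removed and also without CTL 11 and CTL 9. Over all 12 libraries r was 0.32 for the former relation and 0.35 for the latter, with adjusted permutation p = 0.54 for each, so both depended on leaving out HFB 6 and CTL 14. In those libraries C1s was high relative to the fibroblast score and Serping1 was high relative to C4a. The neighbours C1s and C1r gave r = 0.79 over the 10 libraries (permutation p = 0.0247, 0.2 when adjusted) with rho = 0.49 (permutation p = 0.155, 0.56 when adjusted). Without CTL 9 and HFB 2 r was 0.35, so this relation rests on those libraries. The part of cell composition in these relations was not tested.

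The genes most like each of the others were described in the same way, by r over 12 libraries and without a p. For C1r they were Plat (r = 0.951), the tissue plasminogen activator, and Adcy6 (r = 0.926), an adenylyl cyclase, with r = 0.931 and 0.790 without HFB 6 and CTL 14. Plat ran from 37.7 CPM in HFB 6 to 105 CPM in CTL 9, which are also the lowest and highest libraries of C1r. For C1s they were Eln (r = 0.873), which encodes elastin, and Urgcp (r = 0.834). C4b (r = 0.912) and Gstm7 (r = 0.877) came first for C4a, the former being the copy whose reads may be shared. Kdelr1 (r = 0.921) and Lrrc61 (r = 0.916) were the closest to C2, Dlg4 (r = 0.806) and Adamts7 (r = 0.775) to Cfb, and Ier3 (r = 0.937) and Rras (r = 0.929) to Serping1. For C3 these were Polr1c (r = 0.921) and Tmem229b (r = 0.886), which gave 0.794 and 0.691 without HFB 6 and CTL 14.

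RefSeq promoter windows of the GRCr8 assembly, 250 bases before to 50 after the start, were found for 4 of the 9 genes, C3, C4a, C1r and C6. The counts were made on an older build, so the windows describe the annotated genes and not the counted reads. The 250 bases before the start are shown for C1r, C3 and C6, the genes in which HFB 6 and CTL 14 were both lowest or both highest, so that the letters of their starts can be compared. The windows are chr4:159098763-159099012 (plus strand) for C1r, chr9:2201340-2201589 (minus strand) for C3 and chr2:55573383-55573632 (plus strand) for C6. They are written 5′ to 3′ on the strand of the gene, with matches to the searched motifs in capitals.
C1r: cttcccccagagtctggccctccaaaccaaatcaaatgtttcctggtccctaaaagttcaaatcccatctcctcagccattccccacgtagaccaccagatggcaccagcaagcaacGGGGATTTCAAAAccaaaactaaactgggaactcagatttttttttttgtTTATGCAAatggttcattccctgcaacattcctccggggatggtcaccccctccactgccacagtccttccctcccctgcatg
C3: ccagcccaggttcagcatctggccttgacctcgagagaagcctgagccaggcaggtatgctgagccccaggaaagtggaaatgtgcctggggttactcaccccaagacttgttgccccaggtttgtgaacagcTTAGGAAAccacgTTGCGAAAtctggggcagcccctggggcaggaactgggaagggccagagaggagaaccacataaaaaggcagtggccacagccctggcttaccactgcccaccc
C6: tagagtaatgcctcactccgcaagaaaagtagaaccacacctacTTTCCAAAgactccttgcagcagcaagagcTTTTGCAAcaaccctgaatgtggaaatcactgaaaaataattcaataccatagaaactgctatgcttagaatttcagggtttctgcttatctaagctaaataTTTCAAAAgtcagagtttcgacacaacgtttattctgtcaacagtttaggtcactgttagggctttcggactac

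The motifs searched on both strands of the 300 bases were TTCNNNGAA (GAS), GAAANNGAA (ISRE core), GGGNNTTTC (NF-kB core), TTNNGNAA (C/EBP), CCAAT and TATAAA. The C/EBP letters were found in C1r, C3 and C6 and in 41.3% of all 33469 windows of this length. C1r held the NF-kB letters 133 bases before the start, overlapping a C/EBP match on the other strand, and 4.53% of all windows hold them. C6 held TATAAA after the start, outside the bases shown, and 14.2% of windows hold it. None of the 4 windows held the GAS letters (8.87% of all windows), the ISRE letters (9.71%) or CCAAT (37.5%), and the C4a window held none of the 6 motifs. These are matches of letters only, and no binding was measured.

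Of 41 other complement genes listed, 36 had a row, and 25 of these had 3 or more counts in at least 6 libraries. In the diet comparison 18 were tested, and 0 passed at an adjusted p under 0.05 in edgeR's test with Benjamini-Hochberg adjustment. At an unadjusted p under 0.05, 2 of 18 were higher with HFB and 0 lower, against 122 higher and 98 lower among all 9382 tested genes (2.34% together), with a median log2 fold change of 0.08 over the 18.

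Both belong to C1q, the recognition molecule upstream of C1r, which macrophages make in many tissues. C1qb was lowest at 157 CPM, had a median of 163 CPM and was highest at 301 CPM with HFB, and with CTL these values were 110, 133 and 159 CPM. HFB 5 and HFB 6 stood above the other libraries, at 301 and 291 CPM, HFB 3 was also above every control, at 168 CPM, and the 3 other HFB libraries lay within the control range. All 6 HFB libraries were above the control median. For C1qb the log2 fold change was 0.59 (standard error 0.20), with unadjusted p = 0.0119 and Benjamini-Hochberg adjusted p = 0.999 in edgeR, an unadjusted p of 0.0325 or less whichever library was left out, and it was 0.46 without HFB 6 and CTL 14. C1qc, at 156, 182 and 285 CPM with HFB and 137, 158 and 179.5 CPM with CTL, gave a log2 fold change of 0.36 (standard error 0.16, unadjusted p = 0.0429, adjusted p = 0.999 in edgeR with Benjamini-Hochberg adjustment). Its unadjusted p in edgeR stayed under 0.05 only when HFB 1, HFB 2, HFB 4 or CTL 11 was the library left out. It reached 0.115 without HFB 5, with a log2 fold change of 0.24. C1qa, at 143.5, 179.5 and 388.5 CPM with HFB and 141, 167 and 179 CPM with CTL, gave a log2 fold change of 0.51 (standard error 0.24, unadjusted p = 0.0544, adjusted p = 0.999 in edgeR with Benjamini-Hochberg adjustment), and 0.29 without HFB 6. In limma voom with quality weights the log2 fold changes were smaller, 0.33 for C1qb (unadjusted p = 0.0308), 0.20 for C1qc (unadjusted p = 0.109) and 0.14 for C1qa (unadjusted p = 0.318). The 3 chains form 1 protein and are not independent of each other. The 8 macrophage markers, with Lyz2 the most abundant, summed to 607 to 1209 CPM with HFB and 566 to 1180 CPM with CTL. HFB 6 and CTL 14 had the highest sums, of which Lyz2 made up 835 and 909 CPM, while Adgre1 (3.17 CPM), Cd163 (9.51 CPM) and Mrc1 (32.05 CPM) were lowest in CTL 14. The macrophage score, the mean log2 CPM of the list, was highest in HFB 6 (5.95) and HFB 5 (5.64), the libraries highest in C1q, and was 5.40 in CTL 14. CTL 11 was close to HFB 5 in this score (5.60) and highest in Adgre1 (29.9 CPM), Cd163 (67.4 CPM) and Mrc1 (164 CPM). It had the most C1qa (179 CPM) and C1qc (179.5 CPM) of the controls, with 158 CPM of C1qb. HFB 5 had 330, 285 and 301 CPM of these chains, so the score and C1q did not match throughout. The part of macrophage content in the C1q levels was not tested.

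**Figure D4:**
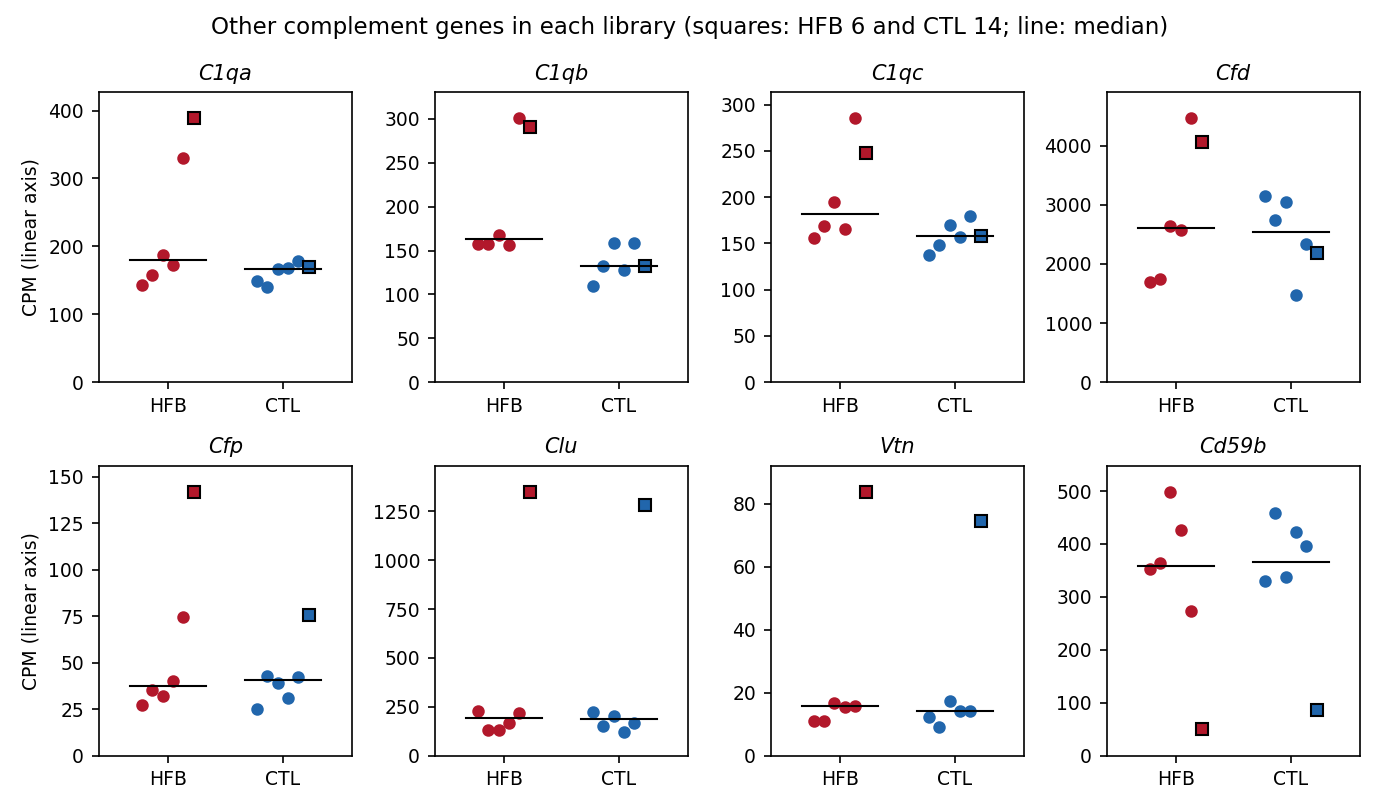
Levels in CPM (linear axis from 0) of 8 other complement genes in the 6 HFB (red) and 6 CTL (blue) libraries, with the median as a line and HFB 6 and CTL 14 as squares. C1qa, C1qb and C1qc are highest in HFB 5 and HFB 6, and Clu and Vtn are high in the squares of both diets, at 1350 and 1284 CPM for Clu.

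Of 9 lectin pathway genes listed, 8 had a row. The ficolin Fcna was at 122, 151 and 302 CPM (lowest, median and highest) with HFB and at 111, 153 and 171 CPM with CTL, and Colec12, a scavenger collectin, at 14.8, 35.9 and 49.8 CPM and at 19.0, 42.7 and 53.5 CPM. HFB 6 was the highest library of Fcna and the lowest of Colec12. Over all libraries Masp1 ranged from 0 to 3.37 CPM, Masp2 from 0.84 to 10.6 CPM and Fcnb from 0.36 to 10.9 CPM, the last 2 being highest in CTL 14. The mannose-binding lectins Mbl1 and Mbl2 had 0 counts in all libraries.

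Cfd, the adipsin protease of fat cells that cleaves factor B, was at 1689, 2608 and 4463 CPM with HFB and at 1477, 2542 and 3156 CPM with CTL. HFB 5 and HFB 6 were its highest libraries. Properdin (Cfp), which stabilises the alternative pathway enzyme, was at 27.1, 37.6 and 142 CPM with HFB and at 25.3, 40.8 and 75.7 CPM with CTL, highest in HFB 6 and CTL 14. Of the other terminal genes C8g ranged from 2.06 to 8.90 CPM, C8a and C8b had 0 counts, and C9 had 4 counts in all.

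Some of the regulators differed widely between libraries and others, such as Cr1l, did not. Clu, clusterin, which binds terminal complexes in fluids, was at 1350 CPM in HFB 6 and 1284 CPM in CTL 14, and at 121 to 230 CPM in the other 10 libraries (diet medians 194.5 CPM with HFB and 186 CPM with CTL). Vtn, vitronectin, was at 83.8 and 74.7 CPM in these libraries and at 9.09 to 17.4 CPM in the others. Cd59b, a membrane inhibitor of the pore, was at 50.5 and 86.6 CPM against 273 to 498 CPM, with diet medians of 358 and 366 CPM. Cd55, a membrane regulator, was at 2.81 and 11.6 CPM against 15.5 to 35.2 CPM. HFB 6 and CTL 14 were thus outside the range of the other libraries in all 4 of these genes, in either direction. Cr1l ranged from 110 to 168 CPM, C4bpa from 0.95 to 9.67 CPM and Cfi from 0.41 to 4.30 CPM.

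Of the receptors, Itgb2, an integrin chain of leukocytes, was at 12.9, 19.4 and 48.9 CPM with HFB and at 12.3, 15.6 and 58.5 CPM with CTL, highest in CTL 14 and HFB 1. Those 2 libraries and HFB 6 also had the highest lymphoid sums, but HFB 6, with the highest of all, had 23.65 CPM of Itgb2, below HFB 2 (27.85 CPM). The part of lymphoid content was not tested. Cd93 was at 2.81, 19.1 and 31.5 CPM with HFB and at 16.1, 23.6 and 33.9 CPM with CTL, lowest in HFB 6. Itgam ranged from 1.20 to 15.6 CPM, C3ar1 from 0 to 3.79 CPM and Cr2 from 0 to 19.0 CPM. Of the 26 tested complement genes, 4 were higher in both HFB 6 and CTL 14 than in each of the other libraries (15.4%, against 22.3% of all tested genes) and 6 were lower in both (23.1%, against 19.2%).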

How the data were processed

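The deposited table holds raw counts per Entrez gene for 12 libraries, which the authors made by sequencing and alignment. The submitters' processing notes name bcl2fastq, CASAVA 1.8, TopHat, DESeq and the build rn4, and the counting program, annotation and use of strand are not given in the sources used here. Identifiers were matched to symbols of the RefSeq gene table of GRCr8 for 16351 of 16511 genes. The complement genes and lists were chosen with earlier results of these data known.

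Counts were filtered with filterByExpr, scaled by TMM and compared by diet alone in R 4.3.3 with the quasi-likelihood test of edgeR 4.0.16. This test gives no standard error, so the absolute log2 fold change divided by the square root of the F statistic was used. DESeq2 1.42.0, limma 3.58.1 with voom quality weights, other scalings, filters and covariates, and leaving out each library were alternatives. Ratios were compared on log2 of counts plus 0.5 with exact permutation over 924 assignments, and relations on log2 CPM with a prior count of 2 by 100000 permutations (scipy 1.17.1, numpy 2.4.6). Benjamini-Hochberg adjustment was used throughout. Depth was 2320267 to 2944680 counts per library, and intervals and the limit of 3 counts cover counting error only.

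The tests were checked on simulated counts with known changes. The recovery required of edgeR there was lowered after its first result fell just short of it, and a check of bias was added. DESeq2 made a larger share of false calls there than the limit set for edgeR, which was not applied to DESeq2.

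The text names all complement members with a row, every other listed complement gene with 3 or more counts in at least 6 libraries by its range (apart from some not reported here), with values for those with an unadjusted p under 0.05 and the 2 most abundant of each list, and for each member the 2 genes most like it among those with a mean of 10 CPM or more. Outside this rule C4b, as a close copy, and Cd55, Vtn, Mbl1, Mbl2, C8a, C8b and C9 were given values after these had been seen. Fold changes of complement genes other than the members, C4b and C1q were computed and are not given, and some changed sign between settings. C7 was not analysed here.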

Additional observations from a re-analysis of the deposited data

Results flagged for a closer look

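In 78 sets of 6 libraries of 1 diet, the distance from the highest or lowest library to the next was divided by the whole range. It was above Dixon's critical value of 0.625 for 19 sets. By chance about 1 in 20 sets of normally distributed values would pass, which comes to 3.9. Levels and marker sums were taken as CPM on a linear scale and their distribution was not checked, so 3.9 is a rough guide. CTL 14 was the library apart in 10 and HFB 6 in 5. The sets share libraries and markers and are not independent. Among the complement genes HFB 6 had 18.4 CPM of C3 (next 7.52) and CTL 9 had 238 CPM of C1s (next 174). CTL 14 had a log2 ratio of C1s to C1r of -0.29 (next -0.58), and CTL 8 a log2 ratio of C2 to Cfb of 1.66 (next 0.91).

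Of the other complement genes, Clu was at 1350 CPM in HFB 6 (next 230) and 1284 CPM in CTL 14 (next 225), and Vtn at 83.8 CPM in HFB 6 (next 16.8) and 74.7 CPM in CTL 14 (next 17.4). CTL 14 also had 75.7 CPM of Cfp (next 43.1), 58.5 CPM of Itgb2 (next 17.8) and the lowest Cd59b at 86.6 CPM (next 330).

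Summed marker levels gave the other gaps. The lymphoid sum was 967.8 CPM in HFB 6 (next 216.3) and 956.8 CPM in CTL 14 (next 36.5), and the adipocyte sum was lowest in CTL 14 at 14439 CPM (next 29500). The endothelial sum was 368 CPM in HFB 6 (next 200.2) and 393 CPM in CTL 14 (next 215), with Pecam1 the most abundant of the 4 markers with a row. Pecam1 alone made up 256 CPM in HFB 6 and 240.2 CPM in CTL 14, while Cdh5 was lowest in HFB 6 at 2.81 CPM. The mean log2 CPM of the list was 5.35 in HFB 6, below the 5.61 of HFB 4, and was highest in CTL 14 (6.165). The summed level of 8 interferon gamma response genes was 738 CPM in CTL 14 (next 373). The hepatocyte sum, with Alb the most abundant gene, was 389.6 CPM in HFB 4 (next 127) and 337 CPM in CTL 10 (next 158).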

How the results depend on the processing

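No gene passed an adjusted p under 0.05 in edgeR's test, in the 20 other fits set out at the start or in the 2 chosen after seeing the data, and so 0 of the 8 complement genes passed in any, with a smallest adjusted p of 0.685 (C1r and C3 without CTL 14). The 220 genes at an unadjusted p under 0.05 became 613 with limma voom, 363 with the lymphoid score as covariate, 431 without HFB 6 and CTL 14 and 565 without these and HFB 1, and the count ran from 135 (without HFB 5) to 587 (without CTL 14) with 1 library left out. The fold change of C4a changed sign with DESeq2 (0.0028), with DESeq2's size factors (0.00029), with the lymphoid covariate (0.033) and without HFB 1, HFB 6 and CTL 14 (0.022), that of C2 with limma voom (-0.088), and that of Serping1 with limma voom (-0.16), with the skeletal muscle covariate (-0.050) and without HFB 6 and CTL 14 (-0.012). With 1 library left out the log2 fold change ran from -0.093 to 0.13 for C4a, -0.040 to 0.15 for C2, -0.024 to 0.91 for C3, -0.15 to 0.0062 for Cfb, -0.11 to 0.17 for Serping1, and the log2 ratio difference of C1s to C1r from -0.051 to 0.18, all crossing 0. None of these values had passed the test. C1r, C1s, C6 and the 3 C1q chains had 1 direction in all of these fits, with smaller C1q values in limma voom. Of the 76 relations, 4 passed with TMM scaling, 1 with CPM by total counts, 3 with a prior count of 0.5 and 2 over 10 libraries. The causes were not tested. With a minimum of 10 counts in every library C3 was dropped, and the ratio of C7 to C6 was not run. The mean CPM of the 8 genes moved by less than 1 SD with total counts. The labels give no pairing of libraries between the diets, and none was used. The counts of C3 limit what could be seen for it.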
